A study of Mus musculus with 16 samples.

Results

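The Shh promoter and the distant part of chromosome 5 that holds Lmbr1 were followed in promoter-capture Hi-C data, which score how often a promoter fragment is ligated to other DNA fragments of the genome. The members were 77 of 260860 listed contacts. They were chosen as all contacts of a promoter fragment named Shh or Lmbr1, plus the contacts of any other promoter on chromosome 5 whose other end starts between 29.2 and 29.35 Mb (GRCm38), called the limb enhancer region here. The Shh promoter gave 74 of them, 44 with the region and 30 outside it, the Lmbr1 promoter gave 2, and the Rbm33 promoter gave the remaining 1. Shh was singled out because its contact with a fragment of Lmbr1 had the largest ESC to EpiLC rise in an earlier look at these values. The stage differences at its contacts are therefore given as a description, with no test.

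The study compared mouse embryonic stem cells (ESC, day 0, kept in 2i and Lif) with epiblast-like cells (EpiLC, day 2) made from them, in 4 cell lines. DNMT_KO lacks the DNA methyltransferases Dnmt1, Dnmt3a and Dnmt3b, and TET_KO lacks the enzymes Tet1, Tet2 and Tet3, which oxidise methylated cytosine. DNMT_WT and TET_WT are the parental wild types of each, so that every genotype was 1 line. Each line at each stage has 2 replicates in the labels, 16 samples in all, but the values hold a single column for each. Differences between columns therefore have no replicate check, and sequencing depth is unknown. The DNMT_WT ESC column stood apart from the rest of its family in the 3180 listed contacts over more than 5 Mb within chromosome 4. Of these, 205 reached a score of 5 in it, against 1755 to 2222 in the other 3 DNMT columns and 8 to 19 in the TET columns. Some results, but not all, are therefore also given without this column or without its line. Contacts do not measure expression, so the labelled cell states could not be set against marker genes.

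Shh encodes Sonic hedgehog, a secreted morphogen that patterns the neural tube and the limb bud. In the posterior limb bud its transcription depends on an enhancer, known as the ZRS, that lies in an intron of the neighbouring gene Lmbr1, far from Shh itself. Loss of that enhancer abolishes limb expression of Shh, and point mutations in it give extra digits. Its position was not part of the values used here, so no single fragment is named as the enhancer. ESC and EpiLC precede limb formation.

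The promoter fragment of Shh spans 28463005 to 28467167 on chromosome 5, and its contacts lay in a distant block. The nearest of its 74 contacts was 391 kb away, the median was 761 kb and the farthest was 916.3 kb, and all lay on the same side of the gene. Only 107 of 19937 promoter fragments (0.537%) had as many contacts on their own chromosome, where the median fragment had 8. Of the 8829 promoter fragments with at least 10 contacts, 518 (5.87%) had a nearest contact as far away as that of Shh or farther, and 2605 (29.5%) had all contacts on 1 side. The densest 150 kb window of Shh contacts beyond 500 kb held 46, and 7 of 10021 promoters, Shh included, had as many in such a window. Within the region, 44 of the 66 HindIII fragments from the first to the last contact were listed. By RefSeq gene bounds, 36 of the 74 other ends overlapped Lmbr1, 12 overlapped Rnf32, a gene for a RING finger protein, 12 overlapped the long non-coding RNA gene Gm35688, and 13 overlapped no gene.

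The region was also read from its own side, through the promoters within or beside it. The Rnf32 promoter fragment (29194992 to 29200675) ends at the border of the region, and the Lmbr1 promoter fragment (29377362 to 29378748) lies past its far end. Both promoter sequences below are from RefSeq (GRCm38.p6, 250 bases before to 50 after the start). They are shown because Shh contacted the fragment of one, while the other contacted fragments beside Shh. Capitals mark CG dinucleotides, the substrate of the enzymes removed in DNMT_KO and, once methylated, in TET_KO. Methylation was not measured in these values.
Rnf32, chr5:29195743-29196042, plus strand: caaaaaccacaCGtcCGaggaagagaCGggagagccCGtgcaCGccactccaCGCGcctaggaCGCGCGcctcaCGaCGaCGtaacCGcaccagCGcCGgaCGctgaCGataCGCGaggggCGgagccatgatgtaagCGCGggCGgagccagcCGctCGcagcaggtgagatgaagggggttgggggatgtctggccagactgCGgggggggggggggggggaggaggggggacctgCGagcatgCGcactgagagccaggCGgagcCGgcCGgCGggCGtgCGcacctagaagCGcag
Lmbr1, chr5:29378341-29378640, minus strand: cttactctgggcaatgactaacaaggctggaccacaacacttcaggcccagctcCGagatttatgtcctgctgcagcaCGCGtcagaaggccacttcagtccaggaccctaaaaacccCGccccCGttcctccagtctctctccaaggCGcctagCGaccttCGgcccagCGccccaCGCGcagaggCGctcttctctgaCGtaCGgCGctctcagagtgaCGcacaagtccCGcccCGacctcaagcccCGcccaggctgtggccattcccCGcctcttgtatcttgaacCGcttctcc
The Rnf32 promoter held 36 CG dinucleotides and 71% G and C, and 6.02% of 27025 promoters of the same length held as many CG. The Lmbr1 promoter held 21 CG and 62% G and C, and 25.01% of promoters held as many, against a median of 7. CG reads the same on both strands. Neither sequence holds the HindIII site AAGCTT (0 matches), so each lies whole within its promoter fragment.

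Values are CHiCAGO scores, which rise with the excess of ligation over what distance and fragment background predict. A score of 5 is the usual threshold for a call, and every listed contact reached it in at least 1 of the 8 columns. Where 4 values stand without names, they are for DNMT_WT, DNMT_KO, TET_WT and TET_KO in this order. Of the 44 Shh contacts with the region, the number that reached 5 in ESC was 18 (DNMT_WT), 7 (DNMT_KO), 17 (TET_WT) and 31 (TET_KO). In EpiLC the numbers were 26, 25, 30 and 39, so that each line had more called contacts in EpiLC. As shares, DNMT_KO went from 15.9% to 56.8% of the 44, and TET_KO from 70.5% to 88.6%. All 59475 contacts in the distance range of Shh stood between 25.8% and 34.9% called in the 8 columns, with DNMT_KO at 25.8% and 26.9% and TET_KO at 34.9% and 34.3%. The 30 Shh contacts outside the region showed no such step, with 6, 3, 2 and 13 called in ESC and 3, 2, 5 and 15 in EpiLC.

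**Figure D1:**
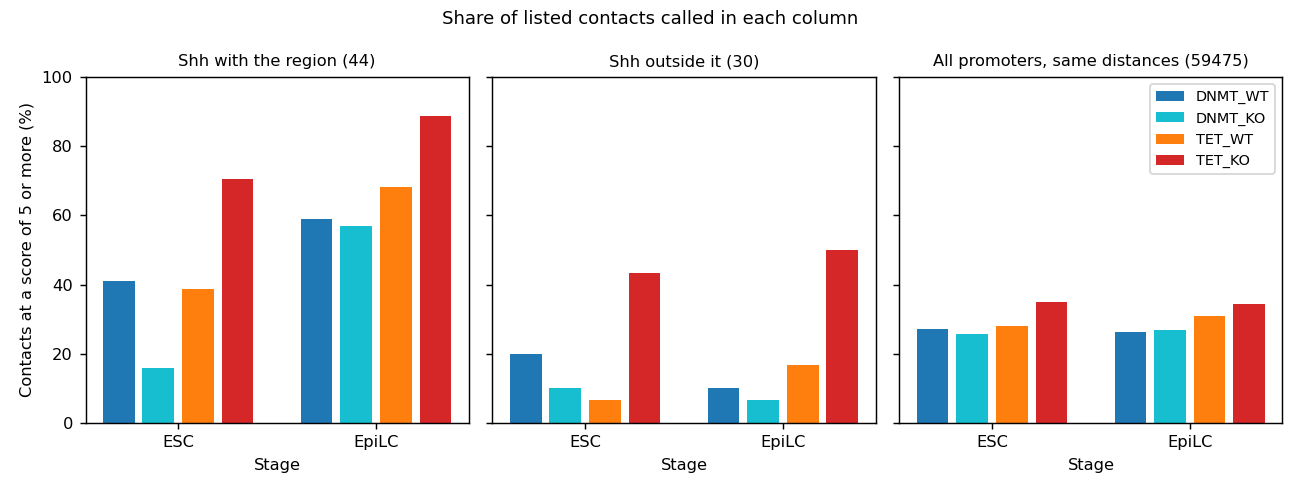
Bars give the percentage of listed contacts at a score of 5 or more in each of the 8 columns, by stage (x axis) and line (colour), for the Shh contacts with the region, the other Shh contacts, and all contacts in the same distance range. Each bar is 1 column with no error. With the region, every line stands higher in EpiLC, and TET_KO is the highest at both stages.

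Contacts shared by many columns were mostly those with the region. In all, 3 of its 44 fragments, all within Lmbr1, reached 5 in all 8 columns, and 0 of the 30 outside did, beside 7.1% of all contacts. In at least 4 columns, 27 of 44 with the region and 3 of 30 outside reached 5, beside 29.5% of all contacts. In 1 column only, the counts were 2 of 44 and 20 of 30, beside 43%. The listing rule itself needs 1 column at 5, so these counts describe the contacts and test nothing.

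The mean score of the 44 contacts was higher in EpiLC in each line. In ESC it was 4.90 (DNMT_WT), 3.09 (DNMT_KO), 4.58 (TET_WT) and 6.76 (TET_KO), and in EpiLC 6.37, 5.90, 7.29 and 9.20. The difference was 2.36 ± 0.62 (SD, n = 4 lines), with the smallest value, 1.46, in DNMT_WT and the largest, 2.81, in DNMT_KO. TET_WT gave 2.71 and TET_KO 2.45, so every line but DNMT_WT lay above the mean. The stages overlapped, since TET_KO in ESC stood above DNMT_WT and DNMT_KO in EpiLC. Outside the region the mean went from 3.34 ± 1.05 to 3.37 ± 0.89 (SD, n = 4 lines), and over all contacts of a chromosome with itself from 4.37 ± 0.19 to 4.53 ± 0.19. The 2 flanks differed: the difference was -0.22 ± 0.61 over the 27 contacts before the region and 2.28 ± 0.54 over the 3 after it. Other ends in Lmbr1 went from 5.02 ± 1.52 to 7.62 ± 1.63, and those in Rnf32 from 3.53 ± 1.5 to 5.07 ± 0.91, with n = 4 lines each.

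Of the 44 contacts with the region, 37 had a higher mean in EpiLC, beside 52.9% of all contacts. In 15 of them the score was higher in EpiLC in 4 of 4 lines, beside 13.5%, and 5 had all EpiLC scores above all ESC scores, beside 4.85%. None had all EpiLC scores below, beside 3.79%. Outside the region 13 of 30 had a higher mean in EpiLC, 4 were higher in 4 of 4 lines, and 0 were free of overlap in either direction. The rule used this contrast, so nothing is read from these counts. On scaled values the same counts, over all 77 members, were 5 above and 0 below, beside 3.95% and 4.78%. Leaving out 1 line loosens the condition. Without DNMT_WT 16 members were above and 1 below, beside 9.05% and 9.87%, and without DNMT_KO 11 and 1, beside 7.7% and 8.78%. Without TET_WT they were 10 and 3, beside 8.54% and 9.35%, and without TET_KO 11 and 2, beside 8.67% and 9.85%. In the wild types alone they were 25 and 6, beside 18.6% and 20%.

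**Figure D2:**
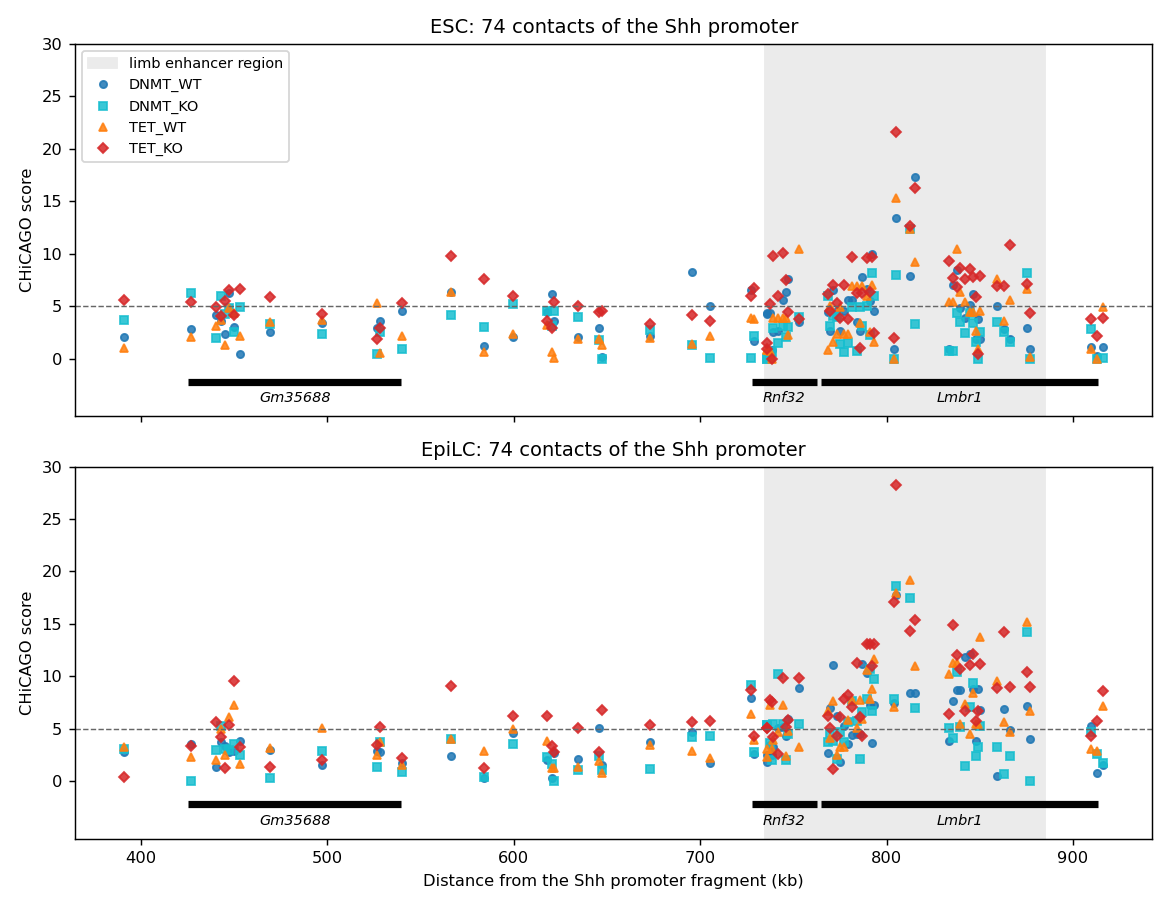
CHiCAGO score (y axis) of the 74 contacts of the Shh promoter against distance from its fragment in kb (x axis), for ESC above and EpiLC below, 1 point per line. Grey marks the region, black bars mark genes, and the dashed line is a score of 5. The highest points lie within Lmbr1 near 805 kb at both stages, and those outside the region stay under 10.

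The strongest contact of Shh, by mean score, was with a fragment within Lmbr1 805 kb away (29269236 to 29270997). Its scores were 13.4 (DNMT_WT), 7.93 (DNMT_KO), 15.3 (TET_WT) and 21.6 (TET_KO) in ESC, against 17.7, 18.6, 17.9 and 28.2 in EpiLC. It was called in all 8 columns and higher in EpiLC in each line, but its stages overlapped, as TET_KO in ESC exceeded the other 3 lines in EpiLC.

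The fragment directly before it, 202 bp long (29269034 to 29269235, 804 kb from Shh), behaved otherwise. It scored 0.919 (DNMT_WT), 0 (DNMT_KO), 0 (TET_WT) and 2.00 (TET_KO) in ESC, against 7.47, 7.85, 7.06 and 17.1 in EpiLC. Thus it was called in no ESC column and in every EpiLC column, with a mean difference of 9.14 ± 4.003 (SD, n = 4 lines). This was the largest stage difference among the members. Shh was singled out by such a rise, so the difference is a description only. In EpiLC the other 3 lines lay between 7.06 and 7.85, and TET_KO stood above them.

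A pair of adjoining fragments a few kb farther on differed from each other in how they went with stage. The nearer (29275859 to 29279495, 812.6 kb) scored 7.86 (DNMT_WT), 12.3 (DNMT_KO), 12.3 (TET_WT) and 12.6 (TET_KO) in ESC, against 8.39, 17.5, 19.2 and 14.3 in EpiLC. DNMT_WT was the lowest line there at both stages. The farther (29279496 to 29281333, 815.3 kb) scored 17.3, 3.29, 9.19 and 16.3 in ESC, against 8.43, 6.95, 11 and 15.4 in EpiLC. There DNMT_WT had the highest ESC score and less than that in EpiLC, DNMT_KO was the lowest line at both stages, and the stages overlapped widely.

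A run of 3 adjoining Lmbr1 fragments nearer to Shh, from 789.4 to 792 kb away, showed different patterns as well. The first (29253079 to 29255878) scored 6.63 (DNMT_WT), 5.02 (DNMT_KO), 5.99 (TET_WT) and 9.63 (TET_KO) in ESC, against 10.4, 7.79, 10.6 and 13.0 in EpiLC. It was called in all 8 columns. The second (29255879 to 29256296) scored 5.53, 2.28, 2.49 and 6.34 in ESC, against 7.27, 10.7, 7.80 and 13.1 in EpiLC. Its EpiLC scores all lay above its ESC scores. The third (29256297 to 29257932) was higher in ESC on average, at 8.70 ± 1.36 against 7.48 ± 3.13 in EpiLC (SD, n = 4 lines each), and its stages overlapped.

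The other contacts without overlap between stages were spread over the region. The fragment at 793.1 kb (29257995 to 29258458) scored 4.57 (DNMT_WT), 5.95 (DNMT_KO), 1.58 (TET_WT) and 2.42 (TET_KO) in ESC, against 7.23, 9.72, 11.7 and 13.1 in EpiLC. The fragment at 846.1 kb (29310464 to 29311977) scored 6.20, 3.42, 4.45 and 7.79 in ESC, against 8.80, 9.40, 8.39 and 12.1 in EpiLC. The fragment at 738.5 kb (29203510 to 29203695), in Rnf32, scored 0.800, 0.672, 0 and 0 in ESC, against 2.54, 1.98, 3.09 and 7.56 in EpiLC. The first of these was called in 5 columns, the second in 6, and the third in TET_KO EpiLC only. Most contacts without overlap were with short fragments, of 186 bp (738.5 kb), 418 bp (791 kb), 464 bp (793.1 kb) and 202 bp (804 kb). The one at 846.1 kb had 1514 bp, and other ends in the region ranged from 186 to 3791 bp. Toward the far end of the region, the fragment at 875.3 kb (29339102 to 29341604) had an EpiLC mean of 11.7 ± 3.71 against 6.22 ± 2.27 in ESC, and the one at 837.6 kb (29302056 to 29303309) went from 7.53 ± 2.60 to 10.6 ± 1.43 (SD, n = 4 lines each). Both overlapped between stages. So did 2 adjoining fragments that were higher in EpiLC in 4 of 4 lines. The one at 849.3 kb (29314134 to 29314591) went from 1.27 ± 1.72 to 6.03 ± 2.32. The one at 850.3 kb (29314592 to 29316261) went from 4.18 ± 2.68 to 9.23 ± 3.88.

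**Figure D3:**
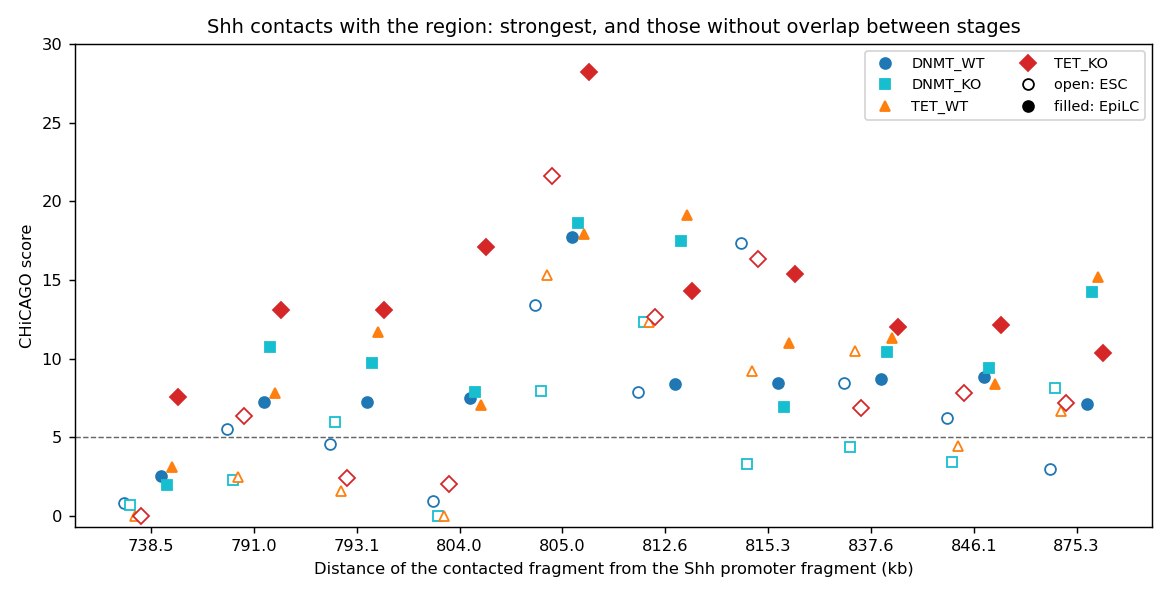
CHiCAGO scores (y axis) of Shh contacts with the region, ordered by distance from the Shh fragment in kb (x axis, not to scale), open for ESC and filled for EpiLC, 1 symbol per line. Shown are the strongest contacts by mean score and the 5 without overlap between stages. The contact at 804.0 kb lies at 2.00 or less in ESC and at 7.06 or more in EpiLC.

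The region's limits have listed contacts on both sides. Just inside the start, the fragment 29200676 to 29200988 had means of 1.65 ± 1.87 in ESC and 3.82 ± 1.68 in EpiLC, and just outside it 29192895 to 29194782 had 3.61 ± 2.28 and 3.39 ± 0.83. Just inside the end, 29341605 to 29342113 had 1.35 ± 2.06 and 4.90 ± 3.84, and just outside 29374324 to 29375019 had 2.15 ± 1.36 and 4.34 ± 0.93 (SD, n = 4 lines for all). The 3 contacts past the end had a mean of 1.75 ± 1.13 in ESC and 4.02 ± 1.66 in EpiLC.

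Outside the region the highest contact by mean score, 29191861 to 29192875 (727.3 kb), lay close to its start. It scored 6.53 (DNMT_WT), 0.036 (DNMT_KO), 3.88 (TET_WT) and 5.95 (TET_KO) in ESC, against 7.88, 9.15, 6.39 and 8.70 in EpiLC. The ESC score of DNMT_KO stood far under the other 7 values. The next, 29030030 to 29032444 (566.2 kb), scored 6.35, 4.14, 6.35 and 9.82 in ESC, against 2.41, 4.03, 3.99 and 9.07 in EpiLC, so it was lower in EpiLC in each line. The other 3 of the highest 5 lay close to one another in Gm35688, about 450 kb from Shh. Of these, 28906477 to 28909838 went from 4.33 ± 1.12 to 4.53 ± 0.69, 28910587 to 28913585 from 5.61 ± 0.91 to 4.30 ± 1.68, and 28913586 to 28916724 from 3.52 ± 0.84 to 5.79 ± 3.15 (SD, n = 4 lines each).

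Lmbr1 encodes a transmembrane protein and was itself poor in listed contacts. Shh and the Lmbr1 promoter fragment, 913 kb apart, scored 0.275, 0, 0 and 2.13 in ESC, against 0.785, 2.63, 2.85 and 5.71 in EpiLC, for DNMT_WT, DNMT_KO, TET_WT and TET_KO. Only TET_KO EpiLC reached 5. The Lmbr1 promoter contacted the promoter of Rbm33, 1059.7 kb away, with 0.036, 0, 0 and 1.56 in ESC and 5.27, 3.71, 1.27 and 0 in EpiLC. It contacted the promoter of Dnajb6, a gene for a co-chaperone, 357.8 kb away on the other side, with 5.57, 0.467, 0.491 and 1.22 in ESC and 0.817, 2.43, 3.15 and 1.58 in EpiLC. Each of these reached 5 in 1 column, that of DNMT_WT EpiLC for Rbm33 and of DNMT_WT ESC for Dnajb6. The Rbm33 promoter contacted the region once, at 29257995 to 29258458, 939.8 kb away, with 0 in all 4 ESC columns and in EpiLC of both DNMT lines, 0.885 in TET_WT EpiLC and 5.47 in TET_KO EpiLC. Shh scored 7.23 or more at the same fragment in all EpiLC columns.

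Promoters at the region contacted the surroundings of Shh in turn. The Shh promoter fragment itself was listed 0 times as the other end of another promoter. A promoter fragment named AC171500.1 (29331742 to 29339101), which lies within Lmbr1, had 14 listed contacts, and the Rnf32 promoter had 9, between 718 and 775.1 kb away. Most fell on fragments beside Shh, in the long non-coding RNA gene 9530036O11Rik. The AC171500.1 promoter contacted the fragment 28467516 to 28471064 with scores of 13.5 (DNMT_WT), 5.74 (DNMT_KO), 20.06 (TET_WT) and 20.04 (TET_KO) in ESC, against 15.02, 14.2, 16.8 and 19.7 in EpiLC. The Rnf32 promoter contacted the same fragment with 8.42, 9.88, 9.05 and 13.9 in ESC, against 9.52, 7.31, 10.98 and 9.92 in EpiLC. Both promoters thus had calls beside Shh in all 8 columns.

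On the other flank of Shh, the fragment 28454022 to 28456092 was contacted by both as well. The AC171500.1 promoter scored 17.2, 9.89, 11.5 and 11.1 in ESC, against 10.3, 15.5, 14.1 and 16.8 in EpiLC. The Rnf32 promoter scored 9.61, 5.40, 9.17 and 10.1 in ESC, against 10.6, 9.27, 9.52 and 11.7 in EpiLC. Over all its contacts, the AC171500.1 promoter had a mean of 6.16 ± 1.43 in ESC and 6.88 ± 1.02 in EpiLC, and the Rnf32 promoter 5.52 ± 2.61 and 6.005 ± 1.25 (SD, n = 4 lines each). These stage differences, 0.73 ± 1.17 and 0.48 ± 1.54, were smaller than the spread between lines. Of the 14 AC171500.1 contacts, 1 had EpiLC scores all above its ESC scores, beside 4.85% of all contacts. It was with 28472004 to 28472756, at 12.1 ± 1.23 against 9.35 ± 1.88.

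**Figure D4:**
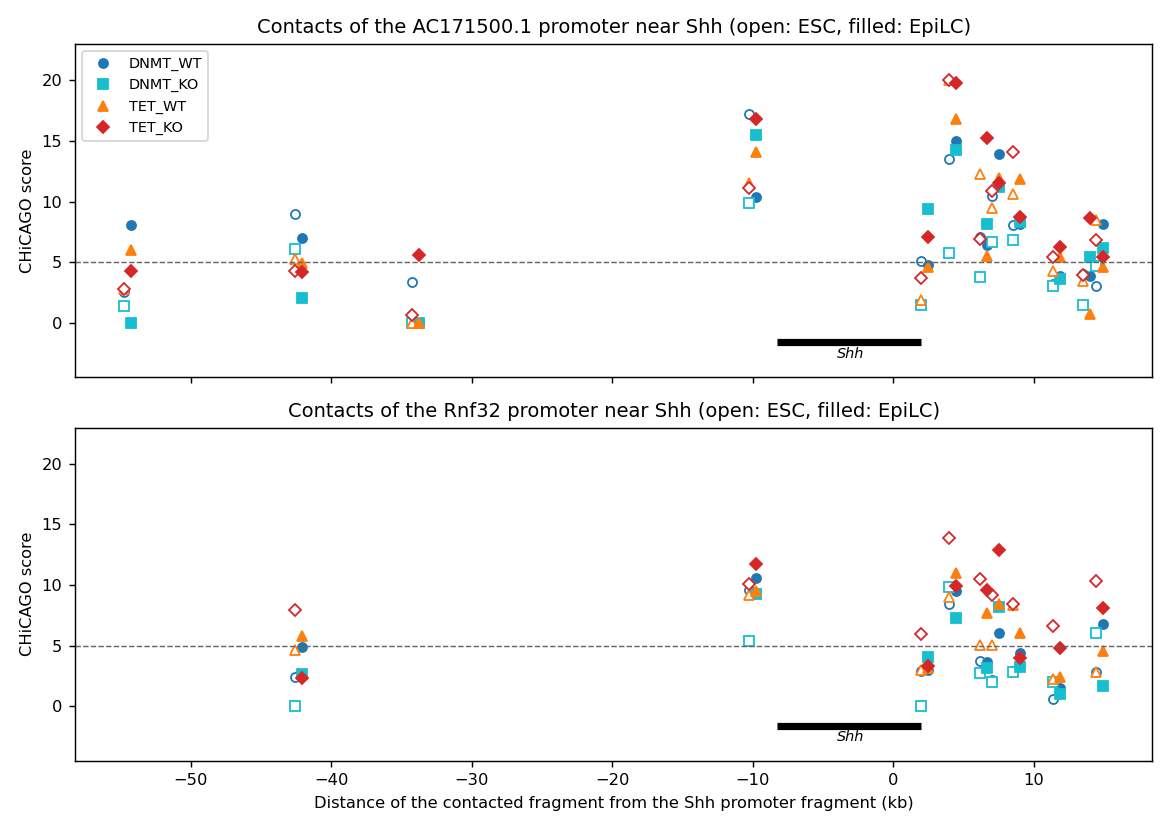
CHiCAGO scores (y axis) of the listed contacts of the AC171500.1 promoter (top) and the Rnf32 promoter (bottom) close to Shh, against distance from the Shh promoter fragment in kb (x axis), open for ESC and filled for EpiLC, 1 symbol per line. The black bar marks the Shh gene. The strongest contact on each flank of Shh lies above 5 in all columns.

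TET_KO had the highest scores of the 4 lines at most Shh contacts. In ESC it was the highest in 45 of 74 (60.8%), beside 28.9% of all contacts and 34.0% of those in the distance range of Shh. In EpiLC it was the highest in 42 of 74 (56.8%), beside 31.1% and 31.5%. Some of these contacts, such as 29048153 to 29049892, are listed because a TET_KO column alone reached 5. There TET_KO is the highest line at that stage by the listing rule, so the counts are a description. The mean of the 44 contacts with the region stood 2.18 above TET_WT in ESC and 1.92 above it in EpiLC, and the 30 outside stood 2.35 and 1.29 above. TET_KO also had the highest mean over all contacts of the distance range, at 4.25 in ESC and 4.20 in EpiLC, against 3.68 and 4.01 in TET_WT. The part of this in the Shh values was not tested.

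Genotypes were compared contact by contact with limma on asinh scores, scaled so that all columns have the same distribution, with stage as a block. On this scale a difference of 0.693 is a doubling of a high score. The repeats of a genotype are the 2 stages of its line, so the p-values do not measure the spread between cultures or clones. For TET_KO against TET_WT, 0 of 77 members passed an adjusted p of 0.05 in limma in either direction, beside 0.00898% of all contacts higher and 0.0098% lower. At an unadjusted p under 0.05 there were 9 members higher and 0 lower, beside 7.49% of all contacts in either direction. Of these 9, the 3 outside the region reached a score of 5 in a TET_KO column only. The listing rule thus favoured a high TET_KO there, and the counts are a description. The mean difference was above 0 in 60 of 77 members, beside 48.8%. Since 74 of the 77 share the Shh promoter fragment, the members are not separate observations, here and in the comparisons below. The median was 0.34 over the contacts with the region and 0.55 over the other Shh contacts, and -0.011 over all contacts. Without the TET_WT ESC column the median with the region was 0.22. Doubling at both stages was found in 8 members, all higher, beside 3.01% higher and 2.63% lower among all contacts. Of the 8, 6 lay outside the region, and all of these but 29084986 to 29086260 reached 5 in a TET_KO column only. Such contacts enter the median over the other Shh contacts as well.

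The smallest adjusted p for TET_KO was at 29308698 to 29310463 in Lmbr1, with a difference of 0.72 ± 0.25 (SE, 95% interval 0.19 to 1.24, limma adjusted p = 0.535). At the 202 bp fragment the difference was 1.12 ± 0.44 (SE, 0.19 to 2.05, limma adjusted p = 0.592), with 1.40 in ESC and 0.84 in EpiLC. Neither passed the threshold.

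DNMT_KO went the other way on average in ESC. It was the lowest of the 4 lines in 42 of 74 Shh contacts in ESC, beside 30.2% of all contacts, and in 24 of 74 in EpiLC, beside 26.4%. In EpiLC DNMT_WT was the lowest more often, in 32 of 74, beside 26.4%. In limma 0 of 77 members passed an adjusted p of 0.05 against DNMT_WT, beside 0.00327% of all contacts higher and 0.00163% lower. At an unadjusted p under 0.05 there were 2 higher and 11 lower, beside 4.2% in either direction. The mean difference was above 0 in 30 of 77, beside 49.6%, and the median was -0.27 with the region and 0.053 over the other Shh contacts. With the region it was -0.36 in ESC and -0.10 in EpiLC, and over both stages it was -0.18 without the DNMT_WT ESC column, -0.14 without the DNMT_KO ESC column, -0.37 without the DNMT_WT EpiLC column and -0.42 without the DNMT_KO EpiLC column. Doubling lower at both stages was found in 4 members, beside 1.45%, and doubling higher in 0, beside 1.65%.

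Single contacts in DNMT_KO differed in sign. At 29299773 to 29302055 in Lmbr1 the difference was -1.19 ± 0.27 (SE, limma adjusted p = 0.621), from scores of 6.998 against 0.703 in ESC and 7.68 against 4.13 in EpiLC. At 29339102 to 29341604 it was 0.84 ± 0.22 (SE, limma adjusted p = 0.971), from 2.95 against 8.14 in ESC and 7.13 against 14.2 in EpiLC, with DNMT_WT given first. Neither passed the threshold.

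The wild types were compared in the same way, as a background. For TET_WT against DNMT_WT, 0 of 77 members passed an adjusted p of 0.05 in limma, beside 0.00613% of all contacts higher and 0.0098% lower, and 6 were higher and 4 lower at an unadjusted p under 0.05, beside 6.65%. The median difference with the region was -0.081, and it changed sign without the DNMT_WT ESC column (0.082) or the TET_WT ESC column (0.015). The mean difference was above 0 in 36 of 77, beside 49.4%. Doubling at both stages was found in 3 members higher and 1 lower, beside 2.5% and 2.25%.

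Averaged over all its contacts on the asinh scale, the Shh promoter had values of 1.98 (DNMT_WT), 1.64 (DNMT_KO), 1.80 (TET_WT) and 2.295 (TET_KO) in ESC, against 2.10, 1.96, 2.197 and 2.44 in EpiLC. TET_KO was the highest line and DNMT_KO the lowest at both stages. The order of the others changed with stage, and the means, 1.93 ± 0.28 in ESC and 2.18 ± 0.20 in EpiLC (SD, n = 4 lines), come from values that overlap. Of 15677 promoters with at least 3 contacts scored in every column, 15.2% had an EpiLC minus ESC difference as high as 0.25, that of Shh. For TET_KO minus TET_WT the Shh difference was 0.50 in ESC, with 8.08% of promoters as high, and 0.24 in EpiLC, with 23.9%. Averaged over both stages it was 0.37, with 10.7% as high. Contacts listed through a TET_KO column only enter these values.

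The promoters most like Shh over the 8 columns, by Pearson's r among 8536 promoters with at least 10 contacts, were Pi16 (r = 0.989), a bait named only as an ultraconserved element on chromosome 14 (0.972), Gpr107 (0.951), Cldn18 (0.949) and Nefl (0.949). In all, 48 promoters reached 0.9. The points are the same 8 columns for every promoter and share their depth. None of the 5 lies on chromosome 5.

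The rest of the hedgehog pathway was described from lists of 31 genes chosen by function, with earlier results of these data known. Of these, 22 had a promoter with at least 3 contacts scored in every column and were tested. Scube1, with 9 listed contacts, was not tested, because none of them has a score in every column. Hedgehog ligands bind the receptor Ptch1, which releases Smo and lets the Gli factors act on target genes. Over the stage comparison in limma, with line as a block, 2 of 22 promoters rose, beside 3.73% of all promoters, and 0 fell, beside 5.14%. The median difference was -0.0032, against -0.010 over all promoters, and 11 of 22 were above 0.

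Among the ligands, Dhh, which acts in the testis and in nerve sheaths, rose by 0.38 ± 0.10 (SE, limma adjusted p = 0.0267), while Ihh, which acts in growing bone, differed by -0.04 ± 0.11 (SE). Of 4 genes for processing and release 0 passed, with Hhat, the enzyme that adds palmitate to the ligand, at 0.18 ± 0.10 and Scube3 at -0.17 ± 0.19. Of 4 receptors and co-receptors 0 passed. The co-receptors Gas1, at -0.35 ± 0.13 (limma adjusted p = 0.100), and Cdon, at 0.24 ± 0.12 (limma adjusted p = 0.220), had the largest differences.

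Of 5 signal transducers 0 passed. The largest differences were at Sufu, which holds Gli factors back, with 0.14 ± 0.10, and Gli2 with 0.14 ± 0.12. Of 7 target genes, Nkx2-2, a regulator of the ventral neural tube, rose by 0.44 ± 0.11 (SE, limma adjusted p = 0.0256). The cell cycle gene Ccnd1, at -0.34 ± 0.11 (limma adjusted p = 0.0660), and Foxf1a, at -0.24 ± 0.10 (limma adjusted p = 0.129), did not pass. Dhh and Nkx2-2 were higher in EpiLC in 4 of 4 lines. Each list held at most 1 rise. Neither passed without DNMT_KO, TET_WT or TET_KO, or with every promoter of at least 1 contact tested, where the limma adjusted p lay between 0.0558 and 0.143. Both stayed above 0 there: without DNMT_KO Dhh stood at 0.30 and Nkx2-2 at 0.30, without TET_WT at 0.42 and 0.48, without TET_KO at 0.44 and 0.46, and with at least 1 contact at 0.38 and 0.44. Without DNMT_WT, Dhh did not pass, at 0.38 (limma adjusted p = 0.0629), and Nkx2-2 did, at 0.50 (limma adjusted p = 0.0387).

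**Figure D5:**
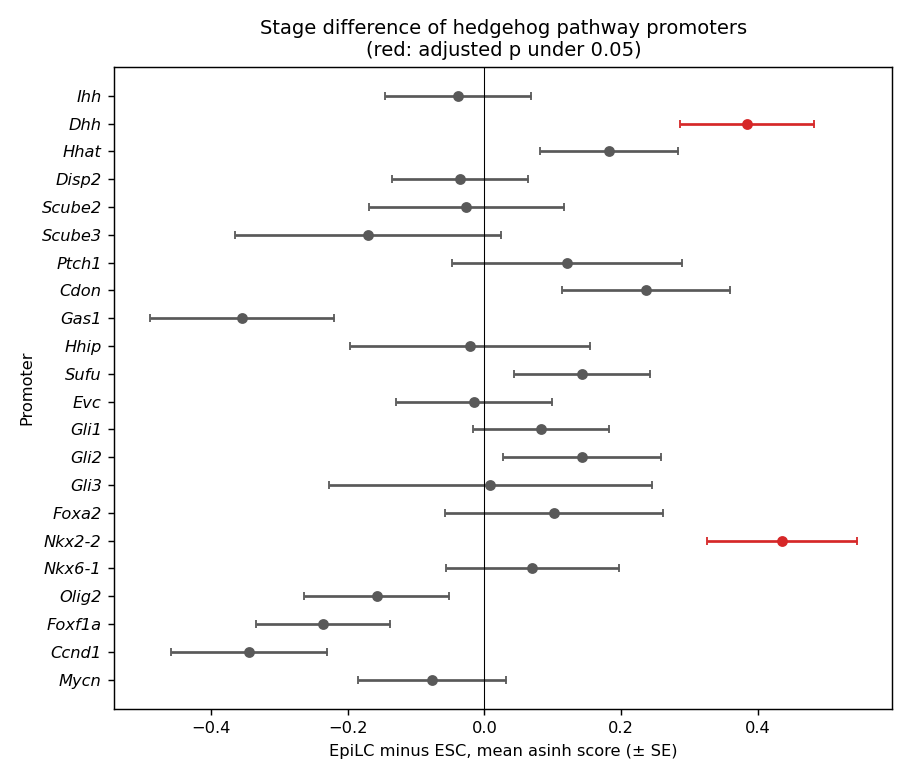
Difference between EpiLC and ESC in mean asinh score (x axis) for the 22 hedgehog pathway promoters tested (y axis), with points for the estimate over 4 lines and bars for its SE. Dhh and Nkx2-2, in red, passed an adjusted p of 0.05 in limma, and the other intervals scatter on both sides of 0.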

How the data were processed

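The deposited values are CHiCAGO interaction scores that the authors computed, 1 score per pair of a promoter fragment and another HindIII fragment in each of 8 columns, per the file headers. Per the labels' protocols, chromatin was cut with HindIII and captured with baits for promoters. Trim Galore 0.6.5, cutadapt 2.3 and GRCm38 are named in the submitters' processing notes. For the aligner, the CHiCAGO version and the way the 2 replicates of a group were joined, details were not given in the sources used here. Sequencing depth is unknown.

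From the scores, the 244865 contacts within a chromosome with all 8 scores were taken as asinh values and quantile normalised between columns. All 77 members had all scores. Scores printed per contact are as deposited. Genotypes were compared with limma 3.58.1 in R 4.3.3 (lmFit, eBayes with a trend), with stage as a block and Benjamini-Hochberg adjustment over all 244865 contacts at 0.05. Promoters were compared between stages with line as a block, over the mean asinh score of 15677 promoters with at least 3 contacts scored in every column. The code was tested on simulated data. Differences of 2 columns have no test.

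The members and the hedgehog lists were chosen with earlier results of these data known. Of the Shh contacts with the region only a part is named. Apart from those at its limits, these were picked after their values were seen. Named as well are the 5 highest other Shh contacts by mean score, all Lmbr1 contacts, and the contact of Rbm33. Also named are the contacts on either side of each limit of the region and the Shh contact with the Lmbr1 promoter, by position. Contacts with the smallest p, those of the AC171500.1 and Rnf32 promoters, and those named for the listing rule were picked after their values were seen. Of the pathway genes, 1 is not reported here and enters no count of the lists. Pathway promoters named are those past 0.05 and up to 2 others per list by size. Alternatives were other scaling, log2(score + 1), lines or columns left out, nearer or more often called contacts, and no trend. Gene bounds and promoter sequences are from RefSeq (GRCm38.p6).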

Additional observations from a re-analysis of the deposited data

Results flagged for a closer look

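The wild-type lines changed order between stages. The mean score of the 44 Shh contacts with the region was lower in TET_WT than in DNMT_WT in ESC (-0.33) and higher in EpiLC (0.92). Over the 30 other Shh contacts the same differences were -0.73 and 0.49. The difference between the stages was not tested.

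Outside the region the lines did not move together from ESC to EpiLC. The mean of the 30 contacts changed by -0.38 in DNMT_WT, -0.13 in DNMT_KO and -0.22 in TET_KO, and by 0.85 in TET_WT. This difference between lines was not tested.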

How the results depend on the processing

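No member passed in the genotype comparison in limma under any of the alternatives run (other scaling, log2, contacts within 1 Mb, contacts called in at least 2 columns, no trend, or a column left out). Counts of contacts free of overlap between stages, 5 above and 0 below, were the same under the scalings and log2. With a line left out they ranged from 10 to 16 above and from 1 to 3 below, while the same share over all contacts ranged from 7.7% to 9.05% above and from 8.78% to 9.87% below. With the wild types only they were 25 and 6, beside 18.6% and 20%. The condition is looser over fewer columns. Leaving out DNMT_WT for its ESC column, an alternative also named after seeing the data, gave the 16 above and 1 below. On scaled asinh values, the mean EpiLC minus ESC difference of the Shh contacts with the region was 0.46 ± 0.15 (SD over lines). With a line left out it ranged from 0.40 ± 0.13 without DNMT_KO to 0.51 ± 0.13 without DNMT_WT.

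The median of TET_WT minus DNMT_WT with the region, -0.081, ranged from -0.16 to 0.082 with a column left out, and reversed to 0.082 without the DNMT_WT ESC column and to 0.015 without the TET_WT ESC column, and the cause was not tested. The count of hedgehog promoters that rose, 2, was 0 with at least 1 listed contact, where 21 promoters passed in all. With a line left out it ranged from 0 to 1. In the main fit, 5 of 22 list members had an unadjusted p under 0.05 in limma, beside 4321 of all 15677 promoters. Without DNMT_KO, TET_WT and TET_KO, where the count that rose was 0, 25, 463 and 375 promoters passed in all.

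No paired analysis was possible because the score columns carry no replicate number, so that columns were paired by line only. With 1 column per group and depth unknown, the precision of a single score is not known, a score of 0 shows no excess over background and not an absence of contact, and knock-out differences cannot be told apart from differences between single lines.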
